A study of Mus musculus with 6 samples.

Results

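The genes described here encode the mitochondrial ribosomal proteins whose symbols start with Mrpl or Mrps. Members were taken by name from the annotated gene entries, without pseudogenes, and had to average 1 FPKM or more across all 6 libraries. FPKM scales fragments to transcript length and library size, so it is a level per length. Of 82 entries with such a name, 5 pseudogenes were left out, and all 77 remaining genes passed the minimum, among 12113 genes of the series that did. They lie on 17 chromosomes, and their lowest level in any library was 3.52 FPKM.

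Mitochondria keep a small genome and translate its messages on ribosomes of their own. These messages encode core subunits of the respiratory chain and of ATP synthase, while every protein of the mitochondrial ribosome is encoded in the nucleus, made in the cytosol and imported. The ribosome has a small subunit, which binds the message and decodes it, and a large subunit, which joins the amino acids. Many of its proteins have a counterpart in bacterial ribosomes and others are specific to mitochondria. In T cells, mitochondrial translation is known to increase after activation through the T cell receptor, and regulatory T cells are known for their use of oxidative metabolism.

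The cells were Foxp3+ iTreg, regulatory T cells induced in culture, from C57BL/6 mice with the Foxp3-DTR/EGFP allele, in which the Foxp3 locus also drives a diphtheria toxin receptor and a green fluorescent protein. All 6 libraries carry this allele. Splenic CD4+ T cells were cultured for 2 days on bound anti-CD3 with soluble anti-CD28 and TGF-β, then given vehicle (DMSO, 3 libraries) or 100 nM PGE2, the prostaglandin that signals through the EP receptors (3 libraries), for 6 h, and sorted on green fluorescence. The labels give no age. They also leave unsaid whether each replicate had its own animal or culture, and a p-value here therefore covers just the variation among these 6 samples, which may be technical. In the bulk RNA of sorted cells, fewer cells of a type and less RNA per cell cannot be told apart.

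Sequencing depth was 4 to 5.45 gigabases of fragments per library, as derived from coverage divided by FPKM. The 5 marker genes of regulatory T cells (Foxp3, Il2ra, Ctla4, Cd4 and Cd3e) were at 75.4 FPKM or more in every library. Summed levels of B cell markers were 3.84 to 5.7 FPKM with vehicle and 3.55 to 4.33 with PGE2, those of myeloid markers 1.98 to 5.37 and 2.78 to 4.48, and those of red cell and platelet markers 1.44 to 1.79 and 1.52 to 2.87. The 5 markers of CD8 and NK cells summed to 6.19 to 8.06 FPKM with vehicle and 8.46 to 11.1 with PGE2, so these groups did not overlap. Klrd1, a receptor chain of NK and CD8 cells, was at 0.961, 0.627 and 2.78 FPKM with vehicle and 2.54, 2.26 and 4.5 with PGE2 (log2 difference 0.80, adjusted p = 0.38 with limma and 0.033 with the replicate block, a call). Cd8b1, a chain of the CD8 coreceptor, was at 4.73, 4.96 and 4.68 FPKM and 5.31, 5.6 and 5.88 FPKM, above every vehicle library (log2 difference 0.19, adjusted p = 0.45). Cd8a was at 0.598 to 0.868 FPKM, and Klrb1c and Ncr1, which define NK cells, were listed at 0 in all 6 libraries. Cd79b and Cd68 were the only B cell and myeloid markers with a mean of 1 FPKM or more (log2 differences -0.25 and 0.03). Of the regulatory T cell markers Ctla4, an inhibitory receptor, rose (log2 difference 0.79, adjusted p = 0.0076 with limma). Foxp3 was not called but was higher with PGE2 in every same-numbered pair (log2 difference 0.32, adjusted p = 0.51 with limma and 0.092 with the replicate block). Cd4 differed by 0.12, Cd3e by 0.07 and Il2ra by -0.11, and limma called none of these. The part of these markers in the results below was not tested.

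No mitochondrial ribosomal protein gene passed the test for a difference between PGE2 and vehicle. By limma on log2(FPKM + 1) with Benjamini-Hochberg adjustment over the 12113 genes, 0 of 77 members were called at an adjusted p under 0.05, where 98 genes were called in all (0.809%). At an unadjusted p under 0.05, 7 members were lower with PGE2 and 0 were higher, against 7.59% and 5.46% of all tested genes. The 7 of 77 lower members are near that background. Differences were small: they ranged from -0.51 to 0.28 on the log2 scale, and 65 of 77 members were within 0.2 of no difference, with a median standard error of 0.11.

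Most means were nevertheless on the lower side. With PGE2, 59 members had a lower mean and 18 a higher mean, so 23.4% were higher, against 43.3% of all tested genes. These and the like counts below use means of log2(FPKM + 1). Mrps36 counts as higher on that scale, though its mean FPKM was 27.7 with vehicle and 27.6 with PGE2. The median log2 difference was -0.07 over the members and -0.03 over all tested genes. The groups did not overlap for 10 members with PGE2 below vehicle (11.9% of all genes had this pattern) and for 0 members with PGE2 above (7.81% of all genes). With the replicate number as a block, again 0 of 77 members were called, while 395 genes (3.26%) were called in all. The plot of differences by gene shows this leftward order.

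**Figure D1:**
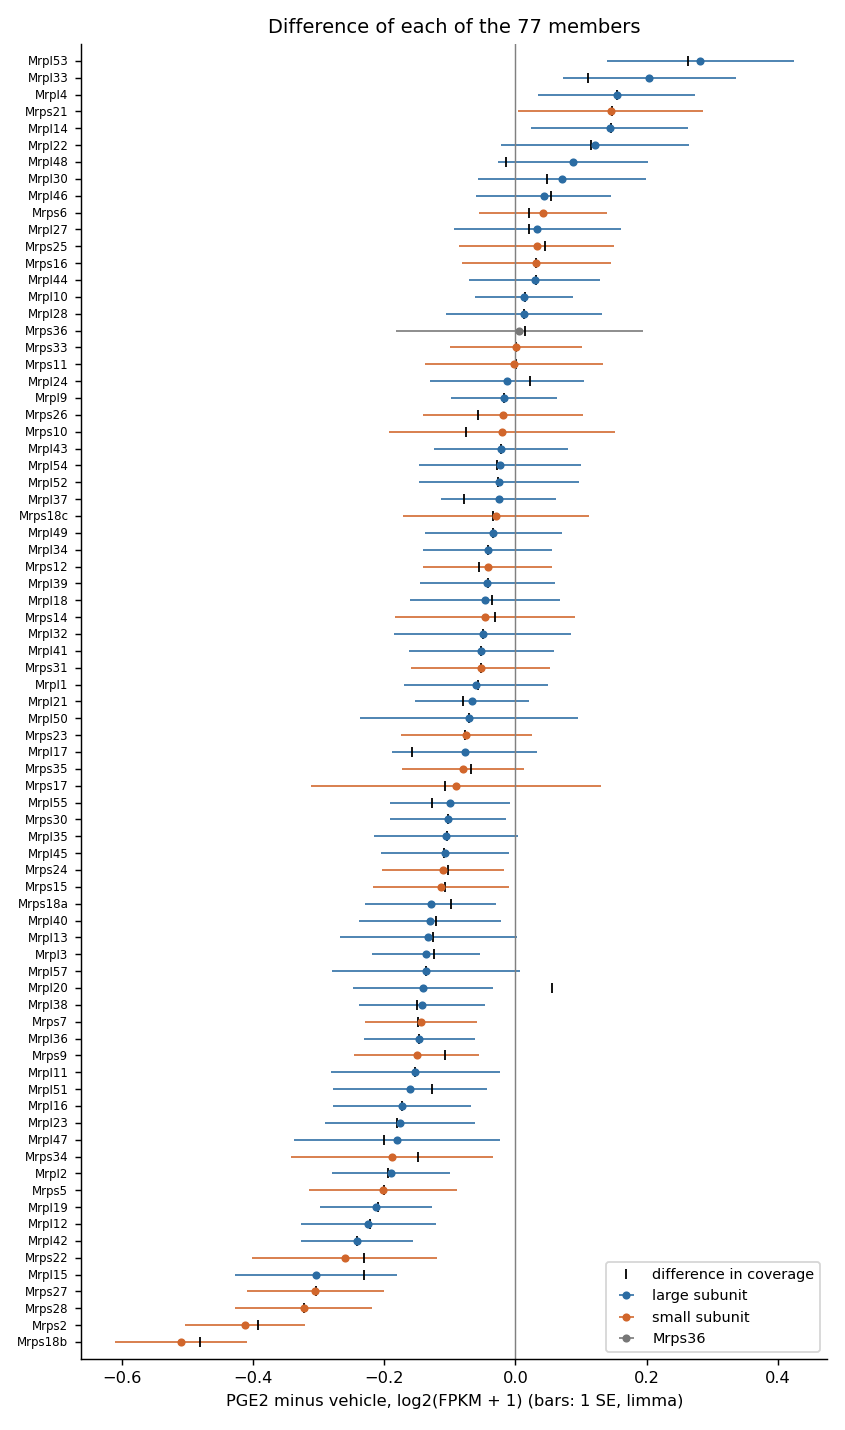
Difference between PGE2 and vehicle for each of the 77 members, in log2(FPKM + 1), with bars of 1 SE from limma and 3 libraries per group. Black ticks give the same difference in coverage. Points run from -0.51 (Mrps18b) to 0.28 (Mrpl53), and 59 lie below 0.

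In the small subunit, 21 of 26 members had a lower mean with PGE2 and 5 a higher mean, with a median log2 difference of -0.08. The subunit held 4 of the 7 members with an unadjusted p under 0.05, and these were the 4 lowest differences of all members (Mrps18b, Mrps2, Mrps28 and Mrps27).

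Mrps18b encodes a mitochondria-specific protein of the small subunit, one of 3 mammalian relatives of a bacterial small-subunit protein. The gene (ENSMUSG00000024436.16) lies on the minus strand of chromosome 17 from 35910379 to 35916389 in mm10. Its level was 23.3, 20.6 and 21.8 FPKM in vehicle replicates 1, 2 and 3 and 13.9, 16.9 and 14.6 FPKM in PGE2 replicates 1, 2 and 3. Every PGE2 library was below every vehicle library. Means were 21.9 ± 1.35 and 15.1 ± 1.6 FPKM (SD, n = 3), a log2 difference of -0.51 (SE 0.10), or 0.703-fold, which missed the threshold (adjusted p = 0.078 with limma). With the replicate block the adjusted p was 0.054, and over all alternatives it ranged from 0.053 to 0.53. Its coverage differed by -0.48 on the log2 scale, and without any 1 library the difference in FPKM stayed between -0.59 and -0.45.

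Some receptors of PGE2 raise cAMP, whose factor CREB binds TGACG. For this reason, and because Mrps18b had the lowest difference of the members, the stretch before its start is shown. It covers the 100 bases before the RefSeq start (GRCm38.p6, minus strand, chr17:35916441-35916540), with capitals marking TGACG, at 93 and 55 bases before the start.
Mrps18b: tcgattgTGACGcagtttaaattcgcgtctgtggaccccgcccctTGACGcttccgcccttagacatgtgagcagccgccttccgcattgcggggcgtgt
These letters are common: on either strand, TGACG was in the promoter windows of 42.6% of members and 38% of tested genes. Both shares are over genes with a promoter in RefSeq's table.

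The other relatives of that bacterial protein stood apart from Mrps18b in level and in difference. Mrps18c, in the small subunit, was at 36.6, 37 and 48.4 FPKM with vehicle and 34.6, 39.7 and 44.9 with PGE2, and the groups overlapped (log2 difference -0.03, SE 0.14, adjusted p = 0.96 with limma). Mrps18a, which despite its symbol sits in the large subunit, was at 31, 26 and 31.8 FPKM with vehicle and 25.6, 27.3 and 27.9 with PGE2 (log2 difference -0.13, SE 0.10). As a ratio of levels per length, Mrps18b over Mrps18c was 0.637, 0.557 and 0.45 in the vehicle libraries and 0.4, 0.427 and 0.325 in the PGE2 libraries. Mrps18b over Mrps18a was 0.752, 0.792 and 0.685 with vehicle and 0.542, 0.621 and 0.523 with PGE2. Both ratios were lower in each PGE2 library than in every vehicle library. They were chosen after the values were seen and were not tested.

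Mrps2, a small-subunit protein with a bacterial counterpart, was at 13.5, 13.9 and 15.9 FPKM with vehicle and 10.8, 10.8 and 10.2 with PGE2 (replicates 1, 2 and 3). The groups did not overlap, and the PGE2 libraries lay close together. The log2 difference was -0.41 (SE 0.09, adjusted p = 0.11 with limma), and the adjusted p ranged from 0.071 with the replicate block to 0.81 over the alternatives. Mrps18b and Mrps2 were the only members that were lower at an unadjusted p under 0.05 without PGE2 replicate 1.

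Mrps28, also of the small subunit, was at 10.9, 9.27 and 10 FPKM with vehicle and 7.13, 8.63 and 7.78 with PGE2, again with no overlap (log2 difference -0.32, SE 0.10, adjusted p = 0.24 with limma). Mrps27, a mitochondria-specific protein with pentatricopeptide repeats, an RNA-binding fold, was at 9.65, 10.6 and 11 FPKM with vehicle and 7.65, 9.3 and 7.8 with PGE2 (log2 difference -0.30, SE 0.10, adjusted p = 0.27 with limma). Here too the highest PGE2 library was below the lowest vehicle library. Mrps22, another mitochondria-specific protein of the small subunit, was at 13, 13.7 and 17.4 FPKM with vehicle and 10.8, 11.5 and 14 with PGE2. Its groups overlapped, since PGE2 replicate 3 was above vehicle replicates 1 and 2, and the log2 difference was -0.26 (SE 0.14, adjusted p = 0.5 with limma).

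The promoters of Mrps27 and Mrps22 are shown because their members were among the lowest and because both hold the letters that ETS factors bind, a family that includes GABP, a known regulator of nuclear genes for mitochondria. Each run is the 100 bases before the RefSeq start in GRCm38.p6, for Mrps27 on the plus strand of chr13:99344686-99344785 and for Mrps22 on the minus strand of chr9:98601680-98601779. Capitals mark CCGGAAG or, on the other strand, CTTCCGG.
Mrps27: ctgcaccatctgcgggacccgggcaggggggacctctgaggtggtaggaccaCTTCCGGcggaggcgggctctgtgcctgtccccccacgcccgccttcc
Mrps22: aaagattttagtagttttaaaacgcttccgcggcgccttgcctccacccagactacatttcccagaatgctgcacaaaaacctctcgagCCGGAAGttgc
The match starts 48 bases before the start of Mrps27 and 11 before that of Mrps22.

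RefSeq's promoter table (GRCm38.p6, 250 bases before to 50 after each start) held 68 of the 77 members and 7903 of the 12113 tested genes. Shares are given over these. Mrps28, Mrpl15, Mrpl19, Mrps34, Mrpl38, Mrpl13, Mrps35, Mrpl54 and Mrpl4 are not in it. Searched on both strands, with a gene counted where any of its starts matched, CCGGAAG was in 25 of 68 members (36.8%), against 23% of tested genes and 9.93% of all 27025 genes in the table. GCGCATGC, bound by NRF1, another regulator of nuclear genes for mitochondria, was in 8 members (11.8%), against 6.76% and 3.05%. AAGATGGC, bound by YY1, was in 12 members (17.6%), against 6.09% and 3.19%. The full cAMP response element TGACGTCA, which contains TGACG, was in 2 members, Mrpl49 and Mrpl16 (2.94%, against 3.96% and 2.03%). CACGTG, the E-box bound by Myc, was in 5 members, Mrpl37, Mrpl20, Mrps18c, Mrpl36 and Mrpl2 (7.35%, against 12.3% and 8.09%). Of the 7 members with an unadjusted p under 0.05, 4 had a promoter in the table, and the letters for ETS factors, for CREB and for YY1 were each in 2 of these. They were Mrps18b and Mrps27 for ETS factors and for CREB, and Mrps27 and Mrpl42 for YY1. A match describes letters in a window and does not show binding.

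At the other end of the small subunit, Mrps21, a small protein with a bacterial counterpart, had the highest mean level of the subunit and a higher mean with PGE2. It was at 69.9, 71.4 and 87.1 FPKM with vehicle and 71.9, 83 and 99 with PGE2, and the groups overlapped (log2 difference 0.15, SE 0.14, adjusted p = 0.75 with limma). Mrps34, a mitochondria-specific protein and the third highest of the subunit, was at 50.9, 43.2 and 35 FPKM with vehicle and 34.5, 43.3 and 34.5 with PGE2, with overlap (log2 difference -0.19, SE 0.15, adjusted p = 0.69 with limma). Its exons share bases with Nme3 on the same strand and Mapk8ip3 on the other. Mrps12, whose counterpart in bacteria governs the accuracy of decoding, was at 32.8, 30.5 and 32.7 FPKM with vehicle and 27.5, 32.6 and 33.4 with PGE2 (log2 difference -0.04, SE 0.10). Mrps7, which in bacteria organises the head of the subunit, was at 20.6, 20.5 and 18.2 FPKM and 17.2, 18.3 and 17.9 FPKM (log2 difference -0.14, SE 0.09). PGE2 replicate 1 was the lowest library for Mrps12 and Mrps7.

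Mrps17, a small-subunit protein with a bacterial counterpart, had the widest spread in FPKM. It was at 14.5, 24.3 and 18.6 FPKM with vehicle and 19.7, 13.1 and 20.7 with PGE2, and its log2 difference of -0.09 had the highest standard error of all members, 0.22. Same-numbered libraries differed in opposite directions. In coverage the log2 difference of Mrps17 was -0.11, with an adjusted p of 0.67 by limma, against 0.91 in FPKM. Its spread was read from FPKM alone. Mrps17 was singled out after its values were seen.

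**Figure D2:**
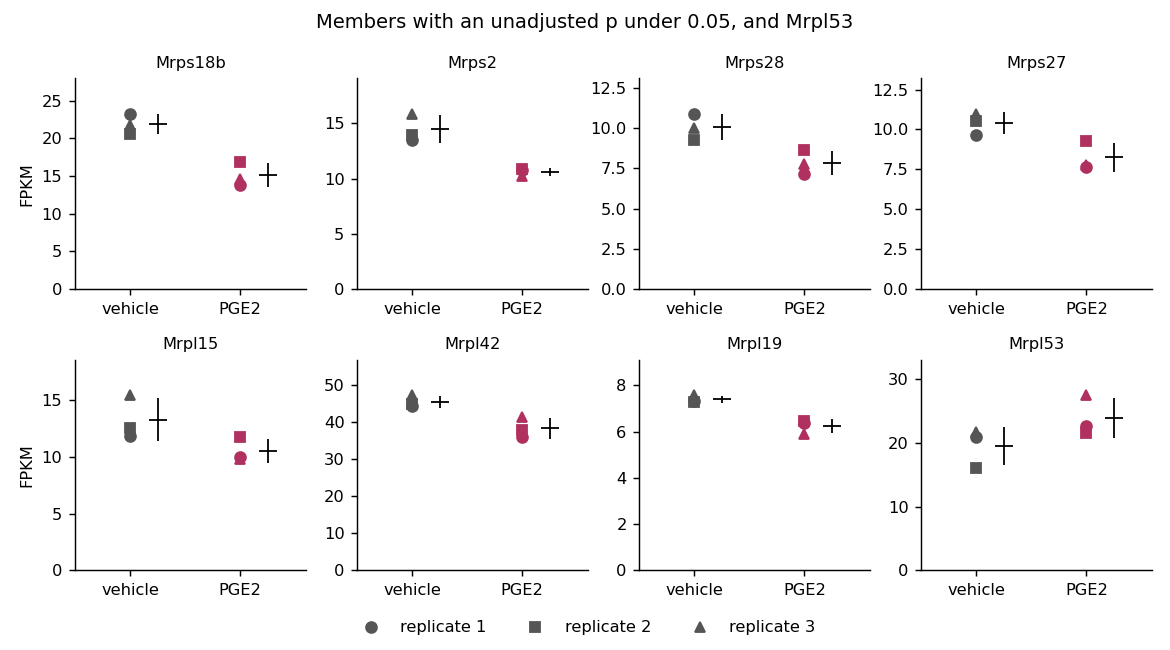
Level in FPKM in each library for the 7 members with an unadjusted p under 0.05 and for Mrpl53, the member with the highest difference. Symbols mark the replicate number, and crosses give the mean and 1 SD of 3 libraries. For the first 7 genes every PGE2 library is below every vehicle library, and for Mrpl53 the groups overlap.

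In the large subunit, 38 of 50 members had a lower mean with PGE2 and 12 a higher mean, with a median log2 difference of -0.06. Mrpl15, Mrpl42 and Mrpl19 were its members with an unadjusted p under 0.05. Mrpl15, with a bacterial counterpart, was at 11.9, 12.5 and 15.5 FPKM with vehicle and 9.99, 11.8 and 9.86 with PGE2, so that the groups were separated by a narrow gap (log2 difference -0.30, SE 0.12, adjusted p = 0.36 with limma). In coverage its difference was -0.23. Mrpl42, a mitochondria-specific protein, was at 44.2, 44.8 and 47.3 FPKM with vehicle and 35.9, 37.8 and 41.5 with PGE2 (log2 difference -0.24, SE 0.09, adjusted p = 0.29 with limma).

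Mrpl19, with a bacterial counterpart, was at 7.33, 7.28 and 7.59 FPKM with vehicle and 6.37, 6.47 and 5.92 with PGE2 (log2 difference -0.21, SE 0.09, adjusted p = 0.36 with limma). The spread within each group was small beside the gap between them. Mrpl42 lies outside the rule for named genes, as do Mrpl19, Mrpl2 and Mrpl36, and they were chosen after their values were seen. Mrpl2, Mrpl36 and Mrpl3 complete the 10 members with no overlap between groups. Mrpl2 was at 26.5 to 29.4 FPKM with vehicle and 22.7 to 26 with PGE2, and Mrpl36 at 34.2 to 34.4 and 28.3 to 32.8. Mrpl3, whose bacterial counterpart reaches towards the site of peptide bond formation, was at 10.8, 10.4 and 10.5 FPKM and 9.1, 9.43 and 10.1 FPKM (log2 difference -0.14, SE 0.08, adjusted p = 0.56 with limma).

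The 5 highest differences of the large subunit were those of Mrpl53, Mrpl33, Mrpl4, Mrpl14 and Mrpl22. Mrpl53, a mitochondria-specific protein (ENSMUSG00000030037.9, plus strand of chromosome 6 from 83109040 to 83109939), was at 20.9, 16 and 21.6 FPKM with vehicle and 22.6, 21.5 and 27.5 with PGE2. PGE2 replicate 2 lay just below vehicle replicate 3, so the groups overlapped. The log2 difference was 0.28 (SE 0.14, adjusted p = 0.47 with limma), and the adjusted p ranged from 0.14 with the replicate block to 1 over the alternatives. Exons of Mrpl53 share bases with those of Gm42688 on the same strand and of Ccdc142os on the other, and its FPKM was 120.4% of that of the assembled locus, the highest such share of all members.

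Mrpl33, a small protein with a bacterial counterpart, was at 66.4, 60.5 and 79.9 FPKM with vehicle and 69.3, 86.7 and 82.1 with PGE2 (log2 difference 0.20, SE 0.13, adjusted p = 0.59 with limma). In coverage its difference was 0.11. Mrpl4 was at 47.7, 39.4 and 34.9 FPKM with vehicle and 44, 46.5 and 44.6 with PGE2, and vehicle replicate 1 was the highest of the 6 (log2 difference 0.15, SE 0.12). Mrpl14, which in bacteria contacts the small subunit, differed by 0.14 (SE 0.12), and Mrpl22, which in bacteria lines the exit tunnel of the nascent chain, by 0.12 (SE 0.14). Neither separated the groups: Mrpl14 was at 31.2 to 34.8 FPKM with vehicle and 30.8 to 41.2 with PGE2, and Mrpl22 at 19.1 to 23.4 and 19.8 to 27.5.

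Of the members with a known part beyond the core of the ribosome, Mrpl12 is a stalk protein that recruits translation factors and also binds the mitochondrial RNA polymerase. It was at 48.1, 42.3 and 46.1 FPKM with vehicle and 34.5, 39.6 and 42.6 with PGE2. The mean was lower with PGE2 and the groups overlapped by 1 library (log2 difference -0.22, SE 0.10, adjusted p = 0.42 with limma). Mrpl11, at the base of the same stalk, was at 7.94, 8.48 and 9.17 FPKM with vehicle and 6.37, 7.54 and 8.97 with PGE2 (log2 difference -0.15, SE 0.13). Mrpl44, which has a fold like that of ribonuclease III, was at 12.5 to 15.2 FPKM with vehicle and 13.6 to 15.2 with PGE2 (log2 difference 0.03, SE 0.10, adjusted p = 0.94 with limma). Mrps36, now assigned to the oxoglutarate dehydrogenase complex and counted here with neither subunit, was at 22.6 to 35.5 FPKM and 23.1 to 32.6 FPKM. Mrpl58, the rescue factor of stalled ribosomes, is listed in the tables as Ict1, outside the name rule, at 13.4, 11.8 and 14.2 FPKM with vehicle and 12.6, 13.1 and 14 with PGE2.

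Grouped by origin, 35 of 46 members with a bacterial counterpart had a lower mean with PGE2 (median log2 difference -0.07), as did 24 of 30 mitochondria-specific members (median -0.06). The differences between subunits and between origins were not tested.

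Levels differed more between members than between groups. The highest mean over the 6 libraries was 22.6 times the lowest, with a median of 21.7 FPKM. Mrpl52, a mitochondria-specific protein of the large subunit, was highest, at 99.2, 83.3 and 95.4 FPKM with vehicle and 79.1, 91.1 and 104 with PGE2 (log2 difference -0.03, SE 0.12, adjusted p = 0.96 with limma). Mrps21, Mrpl33, Mrps16 and Mrpl18 came next, with means of 80.4, 74.1, 71.7 and 61.4 FPKM. The ranges over libraries of Mrpl52, Mrps21, Mrpl33 and Mrps16 overlapped. Within single libraries, Mrpl52 was above Mrps21 in every one. The order of Mrps21 and Mrpl33, and that of Mrpl33 and Mrps16, changed between libraries. These orders were not tested.

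The lowest members were Mrpl1, which in bacteria helps release the used tRNA, and Mrpl47. Mrpl1 was at 3.9, 4.2 and 4.42 FPKM with vehicle and 3.52, 3.98 and 4.43 with PGE2, and Mrpl47 at 4.08, 4.37 and 6.18 FPKM and 3.95, 3.73 and 4.75 FPKM. These ranges overlap as well. In the small subunit Mrps35 was lowest, with a mean of 6.14 FPKM, followed by Mrps28. The order of the 77 levels was nearly the same in both groups: Spearman's rho across genes was 0.99 between the group means and 0.967 to 0.988 between single libraries, where the points share annotation, length and library.

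**Figure D3:**
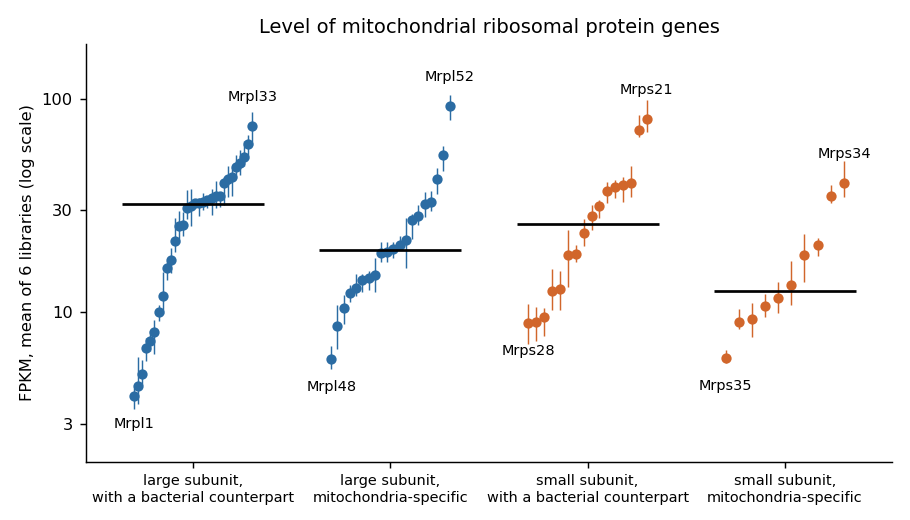
Mean level of 76 members over 6 libraries in FPKM on a log axis, split by subunit and origin, with thin bars from the lowest to the highest library and thick lines at the median of each set. The sets run from 4.07 (Mrpl1) to 92 FPKM (Mrpl52), and the medians are 32 and 19.5 FPKM in the large subunit and 25.8 and 12.6 in the small subunit, with a bacterial counterpart first.

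The lower means with PGE2 depended on which PGE2 libraries were included. PGE2 replicate 1 was the lowest of the 6 libraries for 50 of 77 members, against 17.8% of all tested genes, and the highest for 0. Between same-numbered libraries, 69 of 77 members were lower with PGE2 in replicate 1 (median log2 difference -0.20), 40 in replicate 2 (median -0.01) and 44 in replicate 3 (median -0.02). Over all tested genes 54.9%, 49.6% and 56.9% were lower in these pairs. Without PGE2 replicate 1, PGE2 had the higher mean for 36 of 77 members (46.8%), against 45.8% of all tested genes, and the median difference was -0.01, against -0.02 over all tested genes. The lower means of the members relative to all genes were thus not seen without this library. In that comparison 2 members were lower and 1, Mrpl14, was higher at an unadjusted p under 0.05. Leaving out the lowest library raises a group mean in any case. PGE2 replicate 3 deviated nearly as far upward (median over the members 0.12, against -0.13 for PGE2 replicate 1). Without PGE2 replicate 3, 9 of 77 members had a higher mean (11.7%), against 44.7% of all tested genes. The median difference was then -0.12, against -0.02 over all tested genes. In all 3 pairs 25 members were lower and 5 were higher (Mrpl53, Mrpl33, Mrps21, Mrpl22 and Mrpl48, the last named after its values were seen).

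**Figure D4:**
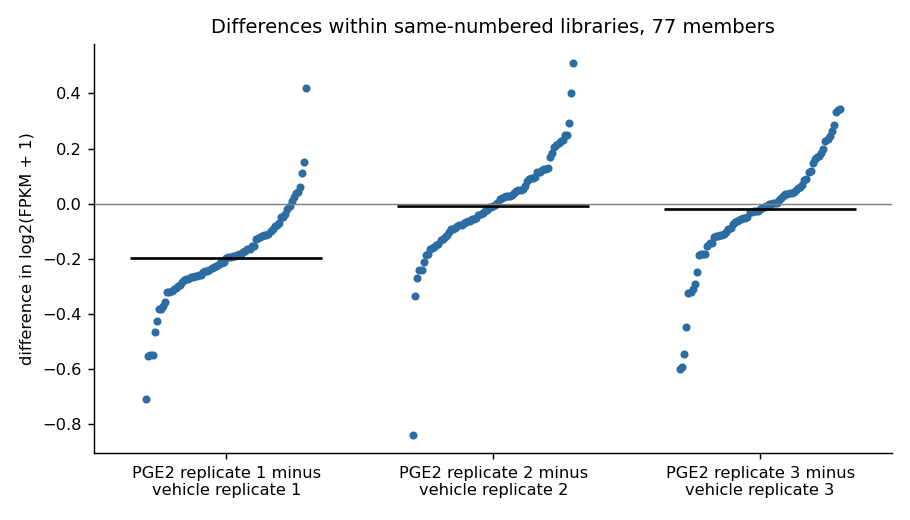
Difference between the PGE2 and the vehicle library of the same replicate number in log2(FPKM + 1), 1 point per member and replicate, with a black line at the median. In replicate 1 most points lie below 0 (69 of 77), and in replicates 2 and 3 they spread around it (40 and 44 of 77 below).

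Summed over the members, the share of all annotated FPKM was 0.473% in each of the 3 vehicle libraries and 0.424%, 0.453% and 0.454% in PGE2 replicates 1, 2 and 3. All 3 PGE2 libraries were below the vehicle libraries, and PGE2 replicate 1 was the farthest. The mean share was lower by 0.029 percentage points with PGE2, and by 0.019 without PGE2 replicate 1. The sums themselves overlapped, at 2107, 2013 and 2159 FPKM with vehicle and 1837, 2049 and 2190 FPKM with PGE2. The share therefore also reflects the total, which was highest in PGE2 replicate 3, at 482105 FPKM. Separated shares were not particular to these genes. The translation factors of mitochondria held 0.0365% to 0.0374% of annotated FPKM with vehicle and 0.0326% to 0.0342% with PGE2, and the mitochondrial ribosomal proteins with other names 0.0361% to 0.0381% and 0.0326% to 0.0359%.

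Cytosolic ribosomal proteins and the nuclear-encoded subunits of the respiratory chain and ATP synthase shared the low values of PGE2 replicate 1 but not the lower means, though their direction depended on scaling and on 1 library. Of 85 tested cytosolic ribosomal protein genes, 70 had a higher mean with PGE2 (median log2 difference 0.06), while 78, 10 and 13 were lower in the pairs of replicates 1, 2 and 3. Many of these genes have processed pseudogenes, so their levels are uncertain. Of 79 respiratory chain and ATP synthase genes, 54 had a higher mean (median 0.04), while 67, 9 and 20 were lower in the pairs. The cytosolic median was -0.01 with quantile normalization and -0.04 without PGE2 replicate 3, and the respiratory chain median 0.005 and -0.06, so neither set kept its direction throughout. The members' median was below 0 under both of these (-0.05 and -0.12). Limma called 0 genes in either set. At an unadjusted p under 0.05, 0 were higher and 1 was lower among the cytosolic ribosomal proteins, and 2 were higher and 2 lower among the respiratory chain genes. These were Rpl7l1 (log2 difference -0.25) in the first set and Atp5d (0.32), Ndufv3 (0.19), Cox6b2 (-0.41) and Atp5g1 (-0.34) in the second, named after their values were seen. The first set was taken by name, which also admitted ribosomal protein-like genes such as Rpl7l1 and Rps27l. The difference between these sets and the mitochondrial ribosomal proteins was not tested.

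**Figure D5:**
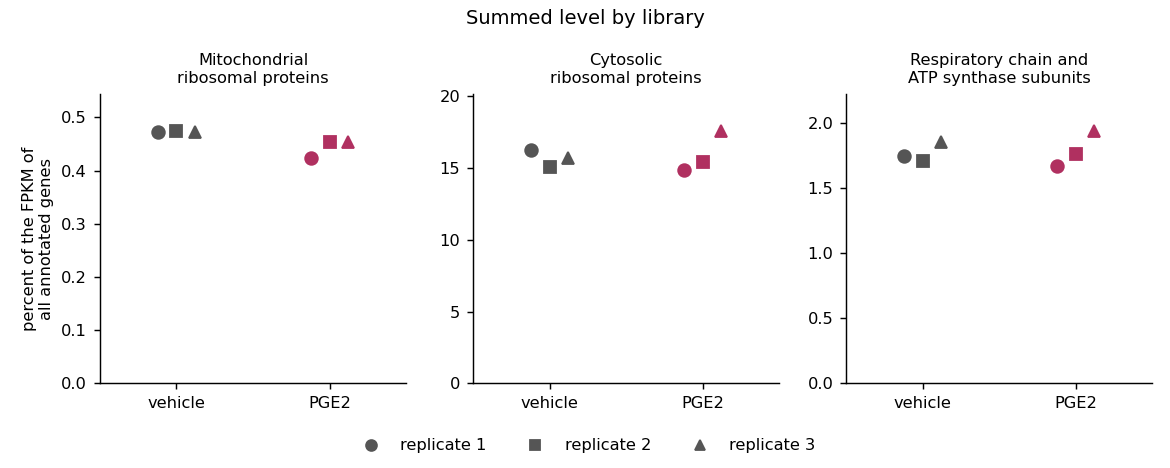
Summed FPKM of each gene set as a percent of the FPKM of all annotated genes, 1 point per library, with axes from 0. The mitochondrial ribosomal proteins are at 0.473% in the vehicle libraries and 0.424% to 0.454% with PGE2, while for the other 2 sets plotted the groups overlap.

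The rest of the mitochondrial translation machinery was read from lists by role. Of 5 mitochondrial ribosomal proteins with other names, 0 were called by limma, 3 had a lower mean with PGE2 and 1, Ptcd3, was lower at an unadjusted p under 0.05. Ptcd3, a pentatricopeptide protein of the small subunit, was at 17.6, 20.4 and 17.2 FPKM with vehicle and 14.9, 15.9 and 12.9 with PGE2, without overlap (log2 difference -0.32, adjusted p = 0.28 with limma). Dap3, a GTP-binding protein of the small subunit, was at 20.5, 15.8 and 16.6 FPKM and 18.1, 18.1 and 25.3 FPKM, with overlap (log2 difference 0.20, adjusted p = 0.67).

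Of 15 tested factors of mitochondrial translation, 14 had a lower mean with PGE2 and 1 a higher mean (median log2 difference -0.10). Of all tested genes 43.3% had a higher mean. The number of factors with a higher mean was 0 with a common sum and 4 with quantile normalization or without vehicle replicate 3. In the pairs of replicates 1, 2 and 3, 13, 10 and 11 factors were lower. Limma called 0, and 1 was lower at an unadjusted p under 0.05. This was Mrrf, which recycles ribosomes after termination. It was at 4.55, 4.15 and 4.57 FPKM with vehicle and 2.95, 3.49 and 3.3 with PGE2, without overlap (log2 difference -0.35, SE 0.10, adjusted p = 0.19 with limma). Lrpprc, which stabilises mitochondrial messages, was at 11.4, 13 and 13 FPKM with vehicle and 11.1, 10.8 and 9.44 with PGE2 (log2 difference -0.23, adjusted p = 0.38 with limma). Its groups did not overlap either.

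Genes for ribosome assembly and rRNA modification were mixed, with 9 higher and 12 lower means of 21 tested, and 1 in each direction at an unadjusted p under 0.05. Limma called 0. Nsun4, a methyltransferase of the mitochondrial small-subunit rRNA, was at 7.81, 7.76 and 7.88 FPKM with vehicle and 10.4, 10.1 and 11.1 with PGE2, above every vehicle library (log2 difference 0.38, SE 0.08, adjusted p = 0.096 with limma). Noa1, a GTPase needed for the small subunit, was at 16.8, 15.3 and 14.7 FPKM and 12.1, 13.9 and 10.3 FPKM, below every vehicle library (log2 difference -0.35, SE 0.12, adjusted p = 0.27 with limma).

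The messages that the mitochondrial ribosome translates were also measured. Of 13 mitochondrially encoded mRNAs, 11 had a lower mean with PGE2 and 0 were called by limma, with 0 at an unadjusted p under 0.05 (median log2 difference -0.14). That median was -0.02 without PGE2 replicate 2, -0.04 without vehicle replicate 3, -0.09 without vehicle replicate 2 and -0.23 without vehicle replicate 1. In the pairs of replicates 1, 2 and 3, 1, 13 and 11 of them were lower, so here PGE2 replicate 1 was not the low library. mt-Nd5, a complex I subunit, was at 602, 690 and 691 FPKM with vehicle and 651, 458 and 505 with PGE2 (log2 difference -0.31, SE 0.15, adjusted p = 0.45 with limma). mt-Nd2, also of complex I, was at 655, 791 and 882 FPKM with vehicle and 657, 575 and 702 with PGE2 (log2 difference -0.26, SE 0.14, adjusted p = 0.51 with limma). Both genes overlapped between groups. The rRNAs mt-Rnr1 and mt-Rnr2 were at 124 to 311 FPKM in these libraries made from polyadenylated RNA, with vehicle replicate 3 and PGE2 replicate 3 highest, and are not a measure of ribosome number.

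For mitochondrial DNA upkeep and transcription, 3 of 7 tested genes had a higher mean with PGE2, and limma called 0, with 0 at an unadjusted p under 0.05. Tfb2m, a transcription factor of mitochondrial DNA, was at 7.14, 7.31 and 5.92 FPKM with vehicle and 5.61, 5.94 and 4.84 with PGE2 (log2 difference -0.27, adjusted p = 0.39 with limma). Tefm, an elongation factor of mitochondrial transcription, was at 3.78, 3.69 and 5.05 FPKM with vehicle and 5.02, 4.4 and 5.72 with PGE2, with overlap and a higher mean (log2 difference 0.23, SE 0.14, adjusted p = 0.57 with limma). Of 8 tested regulators of nuclear genes for mitochondria, all 8 had a lower mean with PGE2, but 3 had a higher mean without vehicle replicate 3. Their median log2 difference was -0.10, and -0.02 without that library. Without both libraries of replicate 3, an alternative added after the data were seen, 4 had a higher and 4 a lower mean (median 0.006). Limma called 0, and 1 was lower at an unadjusted p under 0.05. This was Pprc1, a coactivator of the PGC-1 family, at 11.3, 8.53 and 10.1 FPKM with vehicle and 7.37, 7.06 and 5.66 with PGE2, without overlap (log2 difference -0.51, SE 0.13, adjusted p = 0.15 with limma). Myc, which drives growth genes, was at 110, 74.6 and 86.4 FPKM and 81.1, 60.1 and 71.8 FPKM, with overlap (log2 difference -0.34, SE 0.17, adjusted p = 0.46 with limma). Myc was lower with PGE2 in every same-numbered pair. With the replicate block the adjusted p was 0.071 for Myc and 0.073 for Pprc1, neither a call. Nrf1 and Gabpa, whose motifs are counted above, differed by -0.08 and -0.11.

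Coverage was divided by a depth taken from its own ratio to FPKM, so most of their agreement is built in. In each library, 97.4% to 97.9% of expressed single-transcript genes lay within 1% of that ratio. Agreement of coverage with FPKM is thus no separate support, and just a gap between them is informative. The log2 differences in FPKM and in coverage were at most 0.2 apart, and 4 members changed sign: Mrpl20 (-0.14 in FPKM, 0.06 in coverage), Mrpl24, Mrps11 and Mrpl48. FPKM was within 5% of the value of the assembled locus for 65 members. In GENCODE M21, exons of 31 members share bases with an exon of another gene, 8 on the same strand and 26 on the opposite strand. Among them are Mrps18b, Mrps27, Mrpl19 and Mrpl12 on the opposite strand and Mrpl33 and Mrps18c on the same strand. Whether the gene tables used strand is not given in the sources used here, so the levels of these members are less certain.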

How the data were processed

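RNA sequencing was available for 3 vehicle and 3 PGE2 libraries, grouped by their titles. Per the submitters' processing notes, reads were handled with Trim Galore and HISAT2 on mm10. Their versions, the annotation used and the program that wrote the tables were not given in the sources used here. Per the file headers, each deposited table gives coverage, FPKM and TPM per gene. The authors scaled the deposited FPKM values to depth and transcript length, and the deposited coverage, a signal of mean read depth, served as check after division by depth. As that depth came from coverage divided by FPKM, the check is not independent. Counts were not used here, so no interval for counting error was computed.

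Genes averaging 1 FPKM or more were tested by limma 3.58.1 in R 4.3.3 with a variance trend on log2(FPKM + 1), which understates changes of low genes. Tests were two-sided, with no covariate, and adjusted over 12113 genes at a threshold of 0.05. The procedure was tested on simulated data with noise independent between genes and libraries, so shifts shared across a library were not covered. Of 47643 gene IDs 39106 matched GENCODE M21 (GRCm38) with version. All 77 members matched by ID without version.

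The members and lists were chosen with earlier results of these data known. Named genes are the 6 highest and 6 lowest differences, the 3 highest and 2 lowest levels per subunit, a fixed set by role, and of each list the called genes or else the 2 with the smallest p. The deviations of same-numbered libraries from their group means correlated across genes at 0.227, 0.312 and 0.529, each over 0.1, so by a rule set on these 3 values the numbers were taken to pair the libraries. Unlike-numbered libraries also reached 0.271 (vehicle replicate 2 with PGE2 replicate 1) and 0.149 (vehicle replicate 1 with PGE2 replicate 2), so the pairing is weak for replicate 1. A replicate block was fitted as an alternative. Others were a pseudocount of 0.1, no filter, coverage, a common sum, quantile normalization, no variance trend and each library left out. Figures were drawn with matplotlib 3.10.9.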

Additional observations from a re-analysis of the deposited data

How the results depend on the processing

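No member was called by limma in any of the alternatives, as in the reported comparison, where 7 had an unadjusted p under 0.05. With the replicate block 395 genes were called in all (215 higher and 180 lower, 54.4% higher against 70.4% without it), 0 of them members. At an unadjusted p under 0.05 with this block, 8 members were lower and 1, Mrpl53, was higher. The count of 98 called genes was 45 with no filter on low values, 159 in coverage and, with 1 or 2 libraries left out, 1 to 138. Leaving out both libraries of a replicate number was added after the data were seen. In such smaller comparisons 2 to 8 members were lower and 0 to 1 higher at an unadjusted p under 0.05, and 9 to 36 members had a higher mean (10 with a common sum of annotated FPKM). The median difference of the members was below 0 in each alternative, from -0.12 to -0.01, but so was that of all genes. Without PGE2 replicate 1 the members' median (-0.012) lay above that of all genes (-0.022), as it did without both libraries of replicate 1 (-0.0098 against -0.026). The difference in share was -0.034 to -0.019 with each library left out and -0.027 in coverage, and was not computed for other scalings or with both libraries of a number left out. It was taken over all annotated genes, without a filter, and was -0.029 over tested genes alone, an alternative added after the data were seen. Members with differences near 0 changed sign. With libraries left out, Mrpl22 ranged from -0.020 to 0.21, Mrps18c from -0.12 to 0.10, Mrpl44 from -0.044 to 0.087 (-0.011 with a common sum), Mrpl52 from -0.12 to 0.12 and Mrps12 from -0.11 to 0.061. The cause was not tested.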
